A study of Mus musculus with 8 samples.

Results

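The miR-30 family is a set of microRNAs (miRNAs, short RNAs that repress messenger RNAs they pair with) made from hairpins named Mir30a to Mir30e. Its members were taken by name, as every row of the deposited miRNA table that starts with miR-30a, miR-30b, miR-30c, miR-30d or miR-30e, on either strand. That rule found 6 of the table's 190 mature miRNAs, mmu-miR-30a-5p, mmu-miR-30b-5p, mmu-miR-30c-5p, mmu-miR-30d-5p, mmu-miR-30e-5p and mmu-miR-30e-3p; the remaining strands are not analysed here. The measured cells were LSK cells, bone marrow cells sorted for Sca1 and cKit without lineage markers, which include the blood stem cells and early progenitors. Libraries came from db/m mice (B6.BKS(D)-Leprdb/+, heterozygous for the leptin receptor mutation, the lean controls) and db/db mice (B6.BKS(D)-Leprdb/J, homozygous, which become obese and diabetic), 4 libraries each. The labels describe both genotypes as 6 months into diabetes and give no further treatment, sex or age. Every library title reads db/m, so the genotype field set the groups. The titles also open with a number that several libraries of the same genotype share. Nothing in the labels says whether libraries are separate animals, so p-values measure the spread between these samples, which may be technical.

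A miRNA finds its targets mainly through its seed, bases 2 to 8 from the 5′ end, and miRNAs that share a seed are counted as 1 family because they can bind the same sites. The 5p strands of the miR-30 hairpins share such a seed, while the 3p strands carry another. As background, miR-30 5p strands are known to lower the bone transcription factor Runx2 in mouse bone precursors, the Notch ligand DLL4 in human endothelial cells and the plasma cell regulator PRDM1 in human lymphoid cells. In vertebrates the family is abundant in many epithelial tissues and takes part in the formation of fat cells.

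RefSeq (GRCm38.p6) held the mature sequence of 4 of the 6 members, and these are shown because the results turn on how alike they are. Capitals mark the seed, and the prefix mmu, left out elsewhere, stands for mouse.
mmu-miR-30a-5p: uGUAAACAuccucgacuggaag
mmu-miR-30e-5p: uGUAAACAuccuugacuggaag
mmu-miR-30c-5p: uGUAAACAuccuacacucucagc
mmu-miR-30e-3p: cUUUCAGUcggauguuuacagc
Counted from the 5′ end, miR-30a-5p and miR-30e-5p were identical at 21 of 22 bases and differed by the single substitution C13U. miR-30c-5p shared the first 12 bases with both and differed from miR-30a-5p at 5 of the 22 aligned positions. No source used here says how reads were assigned among such near-identical members, so the division of counts between miR-30a-5p and miR-30e-5p is uncertain. The seed GUAAACA occurred in 4 mature miRNAs of the RefSeq table, the 3 shown and miR-384-5p, which is not analysed here.

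The 6 hairpins lie in 3 pairs, given here in GRCm38 (mm10) coordinates of the GENCODE annotation. On chromosome 1, plus strand, Mir30a (23272269 to 23272339) lies outside annotated genes and Mir30c-2 (23291701 to 23291784) in an exon of the long noncoding RNA gene Gm27028, 19361 bases downstream. On chromosome 4, minus strand, Mir30e (120772606 to 120772697) and Mir30c-1 (120769534 to 120769622) lie 2983 bases apart in introns of Nfyc, which encodes a subunit of the CCAAT-binding factor NF-Y. A further miRNA gene, Mir30f, is annotated opposite Mir30e on the plus strand. On chromosome 15, minus strand, Mir30d (68341208 to 68341289) lies in an exon of the noncoding gene Gm20732, and Mir30b (68337415 to 68337510) overlaps an exon of Gm26621, 3697 bases away. miR-30c-5p is identical from both of its hairpins, so its counts cannot be assigned to chromosome 1 or chromosome 4. The hairpins behind the pair of near-identical 5p strands are printed with both mature strands in capitals.
Mir30a: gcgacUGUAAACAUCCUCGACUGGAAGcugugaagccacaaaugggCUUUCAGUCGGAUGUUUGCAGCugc
Mir30e: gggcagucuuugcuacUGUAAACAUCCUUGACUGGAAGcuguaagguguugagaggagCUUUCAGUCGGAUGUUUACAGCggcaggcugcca

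Depth was low. The libraries held between 13273 (db/m replicate 2) and 77834 (db/m replicate 3) counts, 371637 in all, of which 6915 were miR-30 counts. In the shallowest library 3 counts were worth 226 CPM without scaling (CPM are counts brought to a common library size, elsewhere with TMM scaling). The 9 miRNAs listed as LSK and stem cell markers, such as miR-125a-5p, miR-126a-3p and miR-196b-5p, were all tested, and they summed to between 72514 and 104737 CPM in db/m and between 103282 and 136048 CPM in db/db. Of other lists, 1 of 5 erythroid, 3 of 4 myeloid, 3 of 3 lymphoid, 2 of 8 stromal and endothelial, 4 of 10 epithelial and 2 of 4 muscle and liver markers were analysed here. By edgeR's quasi-likelihood test of db/db against db/m, 144 miRNAs were tested and 7 passed an adjusted p of 0.05 (4.86%), 4 of them higher in db/db (2.78%).

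In db/db LSK cells miR-30a-5p was the 1 member of 6 that passed, and it rose 2.55-fold. The other 5 members did not pass, and the most abundant, miR-30d-5p, had a ratio of 1.05. Log2 fold changes were above 0 for 5 members and below 0 for miR-30e-3p (6 above 0 under scaling by library totals, 3 without a filter on low counts), with a median of 0.21, against a median of -0.03 and 45.8% above 0 over all 144 tested. All 6 members passed the filter on low counts. In sorted cells measured in bulk, a changed number of cells of a type and a changed amount of RNA per cell cannot be told apart.

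**Figure D1:**
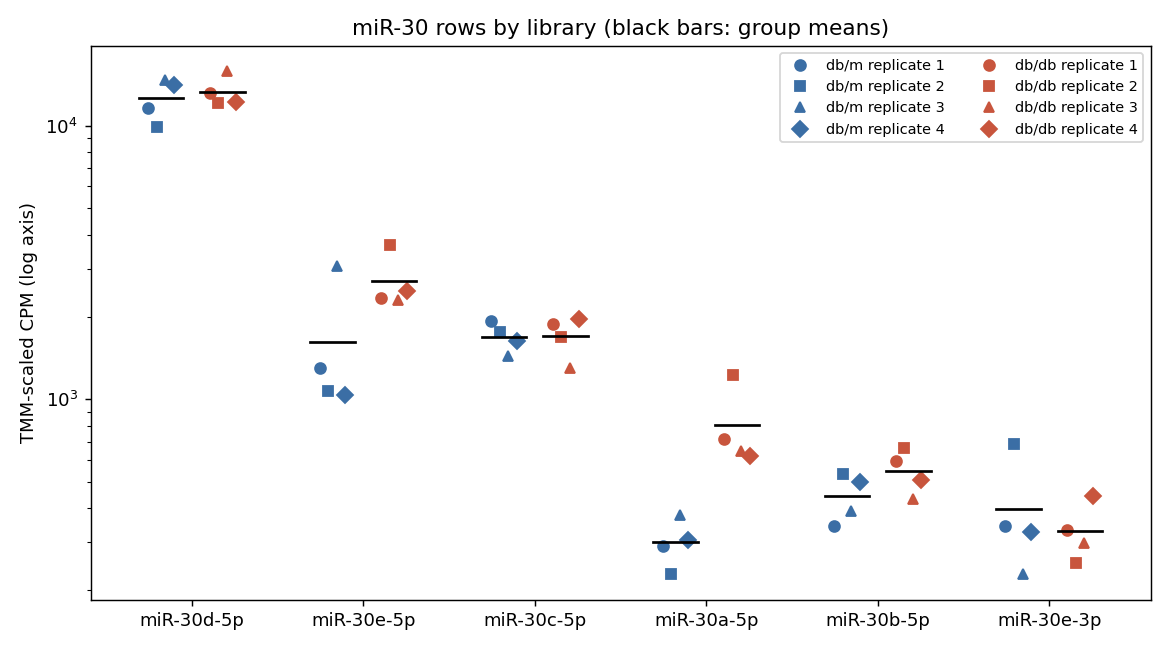
Each point is the TMM-scaled CPM (log axis) of 1 miR-30 row in 1 library, blue for db/m and red for db/db, and black bars are means of 4 libraries. miR-30d-5p lies at 9857 CPM or above in every library, and the 4 db/db points of miR-30a-5p (618 to 1224 CPM) lie above the 4 db/m points (229 to 376 CPM).

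miR-30a-5p, which lowers the autophagy protein Beclin 1 in human cells, had 291, 229, 376 and 307 CPM in db/m replicates 1 to 4. In db/db replicates 1 to 4 it had 714, 1224, 648 and 618 CPM. Every db/db library lay above every db/m library, which held with db/db on top for 12 of the 144 tested miRNAs (8.33%), and db/db replicate 2 was the highest. Mean levels in CPM were 300.9 ± 60.5 for db/m and 801 ± 285 for db/db (SD, n = 4 libraries per genotype, as in all that follows). The log2 fold change was 1.35 (SE 0.34, 95% interval 0.62 to 2.07, edgeR quasi-likelihood adjusted p = 0.0358), sixth of 144 by p. The authors' deposited table put it at 1.28 on the log2 scale, at a false discovery rate of 0.0235; 10 of its 190 miRNAs (5.26%) had a rate under 0.05.

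The miR-30a-5p call rested on few counts. Replicates 1 to 4 held 11, 3, 28 and 16 of them for db/m, against 41, 63, 24 and 28 for db/db. The 3 counts of db/m replicate 2 have an exact Poisson 95% interval of 0.619 to 8.77 counts, or 47.3 to 670 CPM, which reaches the db/db values; such intervals cover counting error only. Without db/m replicate 2 the log2 fold change was 1.27 and the edgeR adjusted p 0.045. The call was lost when db/m replicate 1 was left out (adjusted p = 0.0769), and likewise for replicate 4 of db/m (0.101), replicate 1 of db/db (0.0968) or replicate 2 of db/db (0.128), and without a filter on low counts (0.0578). Over all 13 alternatives the log2 fold change stayed between 1.05, without db/db replicate 2, and 1.54.

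miR-30e-5p is the member 1 base away from miR-30a-5p, and it shares the seed. It had 1298, 1070, 3066 and 1034 CPM across the db/m replicates (1 to 4), against 2335, 3653, 2296 and 2495 CPM across those of db/db. Of the db/m libraries 3 lay below all db/db libraries, while db/m replicate 3 lay above 3 of the 4. Mean levels in CPM were 1617 ± 973 for db/m and 2695 ± 645 for db/db. The log2 fold change was 0.68 (SE 0.35, 95% interval -0.08 to 1.45) and did not pass (edgeR adjusted p = 0.291). That value turned on db/m replicate 3: without it the log2 fold change was 1.18 (SE 0.27) and passed (edgeR adjusted p = 0.0125). No other of the 13 alternatives gave a call, and their log2 fold changes ran from 0.48 to 0.86.

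**Figure D2:**
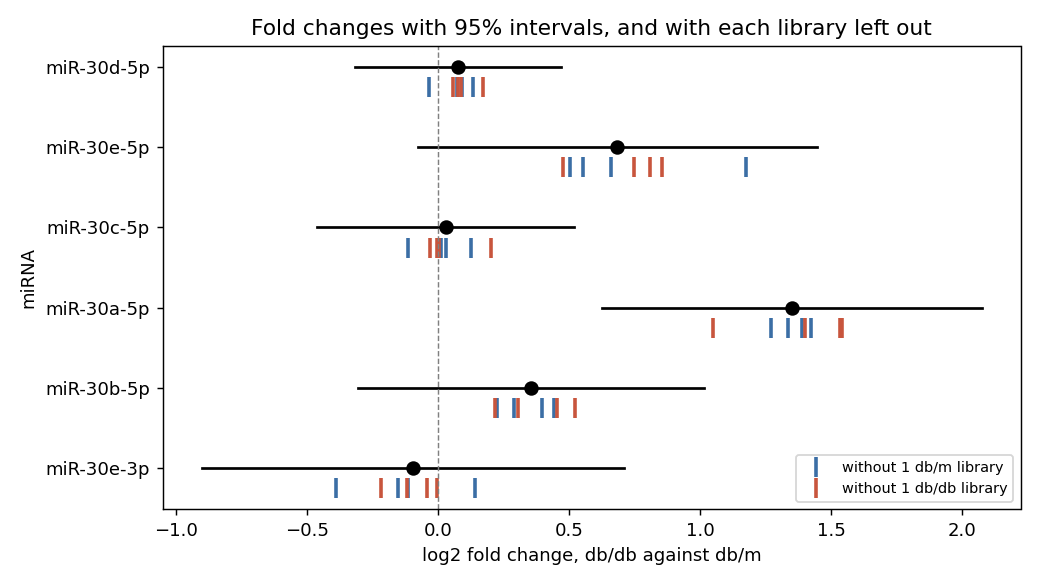
Black points and lines are log2 fold changes of db/db against db/m with 95% intervals from edgeR, 1 line per miR-30 row, and the short ticks under each are the values with 1 db/m (blue) or 1 db/db (red) library left out. The interval of miR-30a-5p lies above 0, and the lone tick of miR-30e-5p at 1.18 is the value without db/m replicate 3.

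miR-30d-5p and miR-30b-5p come from the chromosome 15 pair, and in human melanoma both are known to lower the glycosylating enzyme GALNT7. miR-30d-5p ranked number 20 of the 190 miRNAs by mean CPM. It had 11605, 9857, 14737 and 14099 CPM across the db/m replicates (1 to 4), against 13138, 12107, 15831 and 12209 CPM across those of db/db. The groups overlapped, with the lowest library in db/m and the highest in db/db. The log2 fold change was 0.08 (SE 0.18, edgeR adjusted p = 0.925) with a 95% interval of -0.32 to 0.47, that is a ratio of db/db to db/m between 0.803 and 1.38. Its sign turned without a filter (-0.012), without db/m replicate 2 (-0.036) and when libraries whose titles open with the same number were summed into 1 sample (-0.062).

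miR-30b-5p was lower than its neighbour, at 344, 535, 389.9 and 498 CPM across the db/m replicates (1 to 4), against 592, 661, 432 and 508 CPM across those of db/db. The groups overlapped, although the 2 highest libraries were db/db. It did not pass, at a log2 fold change of 0.35 (SE 0.31, 95% interval -0.31 to 1.01, edgeR adjusted p = 0.596), and stayed between 0.22 and 0.52 in the 13 alternatives. The members of the pair were unequal in level within every library, with 7 to 34 counts of miR-30b-5p against 129 to 1096 of miR-30d-5p.

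miR-30c-5p, known to lower the lipoprotein assembly protein Mttp in mouse liver, was the steadiest member in db/m. It had 1934, 1757, 1439 and 1628 CPM across the db/m replicates (1 to 4), against 1882, 1691, 1297 and 1965 CPM across those of db/db. The ranges lay over each other, and the coefficient of variation was 12.4% for db/m and 17.4% for db/db. The log2 fold change was 0.03 (SE 0.23, 95% interval -0.46 to 0.52, edgeR adjusted p = 0.962). Its sign was not settled, since it turned without a filter (-0.055), without db/m replicate 3 (-0.12), and without db/db replicate 1 (-0.031) or 2 (-0.0034).

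miR-30e-3p is the opposite strand of the miR-30e hairpin, with a seed of its own, and in human glioma it lowers the NF-kB inhibitor IκBα. By the mean over all 8 libraries it was the lowest member, at 344, 688, 229 and 326 CPM across the db/m replicates (1 to 4), against 331, 253, 297 and 442 CPM across those of db/db. All db/db values lay inside the range of db/m, whose highest value, in db/m replicate 2, stood for 9 counts. The log2 fold change was -0.10 (SE 0.37, 95% interval -0.90 to 0.71, edgeR adjusted p = 0.932). The sign turned under scaling by library totals (0.011), without db/m replicate 2 (0.14) and with libraries of the same title number summed (0.065). At 9 to 20 counts per library the interval was wide, and these data do not tell apart the differences inside it.

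The strands of the miR-30e hairpin can be set against each other inside a library, which needs no scaling. Like the 5p strand, miR-30e-3p has a near-identical counterpart, miR-30a-3p, from which it differs by the single substitution A18G. The assignment of counts is therefore uncertain for both strands. Counts of miR-30e-3p were 26.5%, 64.3%, 7.46% and 31.5% of those of miR-30e-5p across the db/m replicates (1 to 4), against 14.2%, 6.91%, 12.9% and 17.7% across those of db/db. The highest 3 ratios were db/m, but db/m replicate 3 lay second lowest, beside db/db replicate 2. On the log2 scale (0.5 added to each count) the mean ratio was -1.96 ± 1.29 for db/m and -2.99 ± 0.57 for db/db. The difference of -1.03 did not pass (exact two-sided permutation p = 0.2, adjusted over 3 ratios 0.2), where 4 against 4 libraries cannot go below 0.0286. Without db/m replicate 3 the difference was -1.61 (exact two-sided permutation p = 0.0571, adjusted 0.0857, the first being the smallest that 3 against 4 libraries can give), and without db/m replicate 2 it was -0.58. Both strands had a row for 27 hairpins. With counts summed over all 8 libraries, the lower strand of miR-30e held 12.1% of its hairpin's counts. That was number 10 from the lowest, against a median of 22.9%. Deep libraries weigh most in such a sum, and db/m replicate 3 gave 228 of the 865 miR-30e-5p counts. Among the 14 hairpins with both strands tested, the log2 fold changes of the strands differed by a median of 0.53, and those of miR-30e by 0.78, the fourth largest.

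**Figure D3:**
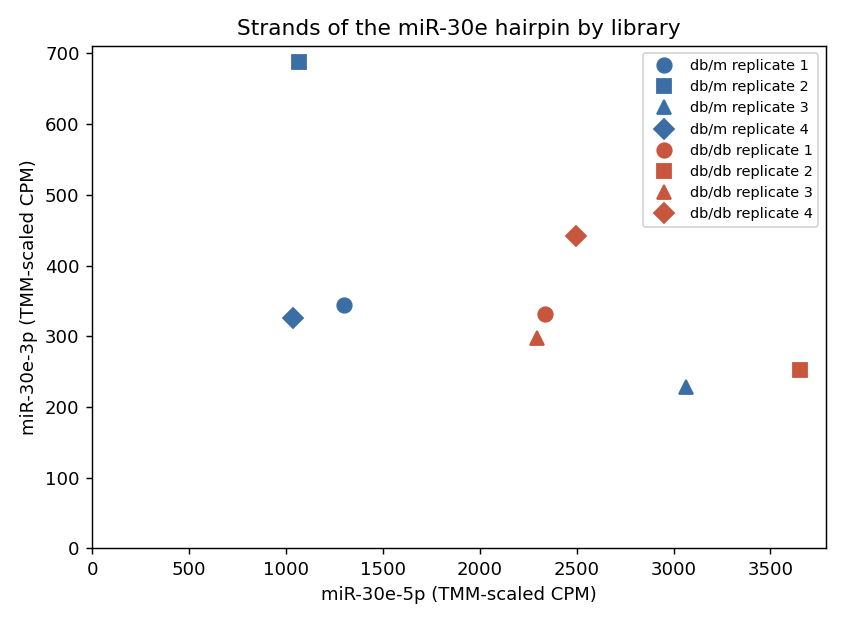
Each point is 1 library, with miR-30e-5p on the horizontal and miR-30e-3p on the vertical axis, both in TMM-scaled CPM. db/m replicate 3 (3066 and 229 CPM) lies next to db/db replicate 2 (3653 and 253 CPM), away from the other 3 db/m libraries.

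Within a library, ratios to miR-30a-5p also need no scaling. miR-30a-5p stood at 2.51%, 2.33%, 2.55% and 2.17% of the miR-30d-5p counts in db/m replicates 1 to 4. In db/db replicates 1 to 4 it stood at 5.44%, 10.1%, 4.10% and 5.06%. The groups did not overlap, and the db/m libraries were close to each other. That closeness rested on only 11, 3, 28 and 16 counts of miR-30a-5p in db/m replicates 1 to 4. In db/m replicate 2 the miR-30a-5p share of the summed 5p counts had a Wilson interval of 0.58% to 4.89%, for counting error only. That interval reached the lowest db/db share, 3.16%. As miR-30d-5p changed little (log2 fold change 0.08), its ratio to miR-30a-5p largely restates the miR-30a-5p difference. The log2 ratio was -5.30 ± 0.12 for db/m and -4.09 ± 0.55 for db/db, a difference of 1.22 with the smallest p this design allows (exact two-sided permutation p = 0.0286), which became 0.0857 after adjustment over the 3 ratios and so did not pass. With these group sizes 1 ratio alone cannot pass that adjustment, since another of the 3 would also have to reach the smallest p. miR-30a-5p stood at 22.4%, 21.4%, 12.3% and 29.6% of miR-30e-5p across the db/m replicates, against 30.6%, 33.5%, 28.2% and 24.8% across those of db/db. Those groups overlapped, and the log2 difference of 0.46 did not pass (exact two-sided permutation p = 0.114, adjusted 0.171). Added together, the near-identical miR-30a-5p and miR-30e-5p came to 1590, 1299, 3442 and 1341 CPM across the db/m replicates, against 3049, 4878, 2945 and 3113 CPM across those of db/db, with only db/m replicate 3 inside the db/db range.

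**Figure D4:**
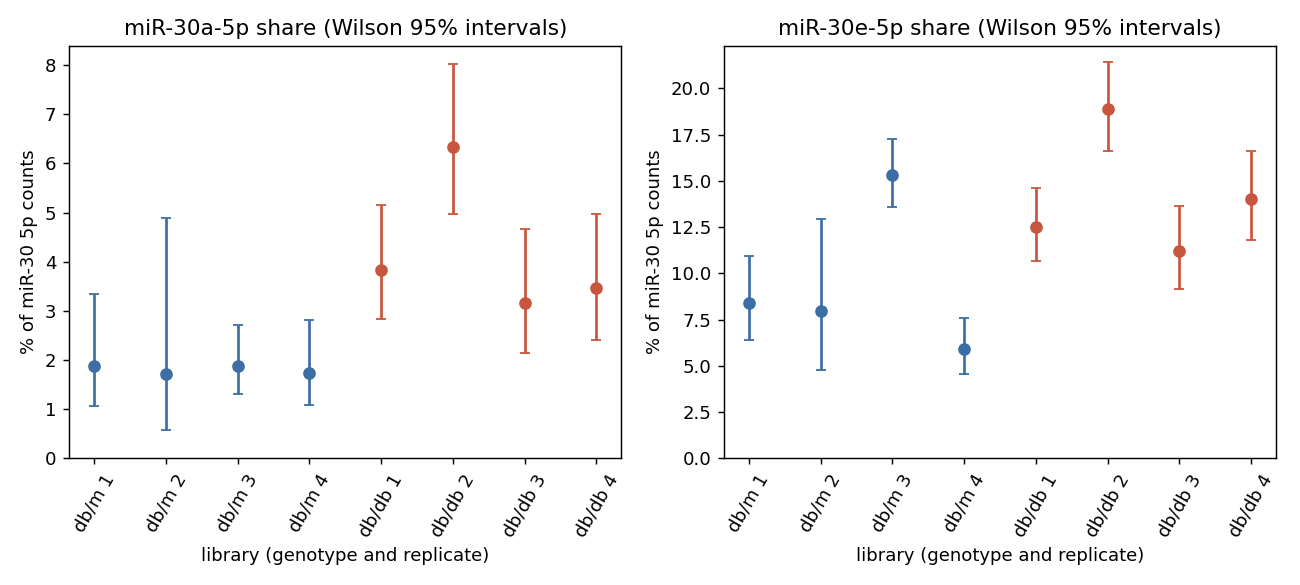
Points are the shares of miR-30a-5p (left) and miR-30e-5p (right) in the summed counts of the 5 miR-30 5p strands, per library, with Wilson 95% intervals that cover counting error only. The db/m shares of miR-30a-5p lie between 1.70% and 1.88% and the db/db shares between 3.16% and 6.33%, while db/m replicate 3 has a miR-30e-5p share of 15.3%, above 3 of the db/db libraries.

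The summed level of the 5 strands with the shared seed was 15473, 13448, 20008 and 17566 CPM across the db/m replicates (1 to 4), against 18662, 19336, 20505 and 17795 CPM across those of db/db. The means were 16624 ± 2813 and 19075 ± 1143 CPM, a ratio of 1.15, and db/m replicate 3 lay above 3 of the db/db libraries. The sum is a description of members chosen by name and has no test. As a share of all counts the 6 rows held 1.63% ± 0.244 for db/m and 2.00% ± 0.119 for db/db, with overlap.

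miR-30d-5p made up most of that sum, with 75.6% ± 3.22 of the 5p counts for db/m and 69.7% ± 6.01 for db/db. miR-30e-5p held 9.39% ± 4.10 and 14.2% ± 3.36, miR-30c-5p 10.5% ± 2.77 and 9.05% ± 2.05, miR-30b-5p 2.75% ± 0.900 and 2.89% ± 0.569, and miR-30a-5p 1.80% ± 0.0927 and 4.20% ± 1.45 (db/m first). The member with the largest fold change was the scarcest of the 5p strands in db/m. Without miR-30d-5p the other 4 strands had summed levels of 4049 ± 831 and 5753 ± 1068 CPM in the same order, a ratio of 1.42.

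By genomic pair, the chromosome 15 members had summed levels of 13016 ± 2234 CPM for db/m and 13870 ± 1663 CPM for db/db, a log2 ratio of means of 0.09. Both strands of miR-30e, which only the chromosome 4 pair makes, summed to 2014 ± 870 and 3026 ± 605 CPM, a log2 ratio of 0.59. miR-30a-5p, which only the chromosome 1 pair makes, had a log2 ratio of 1.41, and miR-30c-5p, which can come from either of those pairs, of 0.02. The log2 ratio of the chromosome 15 sum fell to -0.0022 without db/m replicate 2, and that of the miR-30e sum reached 0.93 without db/m replicate 3.

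The miRNAs whose levels followed miR-30a-5p most closely were taken from 117 tested miRNAs outside the family with at least 100 CPM on average and 3 counts in every library, by Pearson's r of log2 CPM over the 8 libraries. They were miR-196b-5p (r = 0.93), encoded in the Hoxa cluster, miR-101a-3p (0.88), miR-322-5p (0.85), miR-21a-5p (0.81) and miR-29c-3p (0.80). With the genotype means removed r was 0.63, 0.69, 0.65, 0.54 and 0.29 in that order. The 8 libraries share 2 genotypes and unequal depth, and the values are a description. Because these correlations include the genotype difference, the choice largely fixed the direction of the 5 log2 fold changes, which ran from 0.41 to 1.08. Of them miR-196b-5p passed (0.75, SE 0.19, edgeR adjusted p = 0.0436). The 5p sum was followed most closely by let-7i-5p (r = 0.82), let-7j (0.81), miR-339-5p (0.80), miR-19b-3p (0.80) and miR-20a-5p (0.79), none of which passed.

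Because miR-30 acts in the formation of fat and bone cells, other miRNAs of those processes were listed with it. Of 19 listed, 13 were tested and 0 passed in either direction by edgeR or by DESeq2 (2 at an unadjusted edgeR p under 0.05). Their log2 fold changes were above 0 for 11 and below for 2, with a median of 0.18. Over all 144 tested miRNAs, 32 had an unadjusted edgeR p under 0.05 (22.2%). Of those 144, 45.8% had log2 fold changes above 0, and the median was -0.03. The most abundant member of the fat and bone cell list was miR-26a-5p, at 22406 ± 3499 CPM for db/m and 30821 ± 3994 CPM for db/db. Its log2 fold change of 0.46 did not pass (SE 0.16, edgeR adjusted p = 0.111). The LSK and stem cell list had 3 of 9 members called, all higher in db/db, and a median log2 fold change of 0.40. The called members were miR-126a-3p (log2 fold change 1.38), miR-126a-5p (1.60) and miR-196b-5p (0.75). Both miR-126a rows are strands of the same hairpin and so are not separate loci. By edgeR, 4 of all 144 tested miRNAs were called higher (2.78%). DESeq2 called 4 of the 9, and among the 120 miRNAs it tested it called 6 higher and 8 lower in db/db. The summed levels of the LSK and stem cell list were higher in 3 of the 4 db/db libraries than in any db/m library. Within genotypes the relation of these sums to miR-30a-5p was mixed and was not tested. In db/m, replicate 3 had the highest miR-30a-5p (376 CPM) and the lowest sum (72514 CPM). In db/db, replicate 4 had the lowest miR-30a-5p (618 CPM) and the highest sum (136048 CPM). The lowest db/db sum (103282 CPM) was in replicate 3, which had 648 CPM of miR-30a-5p. miR-196b-5p, a member of the list, kept r = 0.63 with miR-30a-5p after the genotype means were removed.

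Since miR-30a is also abundant outside blood, markers of other cells were set beside it. Epithelial markers summed to between 1513 and 2438 CPM in db/m and between 1837 and 2914 CPM in db/db, led by miR-203-3p (log2 fold change 0.43, SE 0.26, edgeR adjusted p = 0.361). Stromal and endothelial markers summed to 76.4 to 498 CPM in db/m and 175 to 1236 CPM in db/db, and miR-143-3p of that list was at 0 counts in 1 library. Muscle and liver markers summed to 460 to 1605 CPM in db/m and 470 to 1837 CPM in db/db. Each of these ranges overlapped between the genotypes, while the mean of all 3 sums was higher in db/db, as was miR-30a-5p. From db/m to db/db the mean sums were 1962 and 2457 CPM for epithelial markers, 310 and 560 CPM for stromal and endothelial markers, and 763 and 1044 CPM for muscle and liver markers. Of the last list, miR-1a-3p, a muscle miRNA, averaged 150 ± 94.6 CPM for db/m against 577 ± 489 CPM for db/db (SD, n = 4 per genotype) and was removed by the filter on low counts. The most abundant member of that list, miR-122-5p, went the other way, at 613 ± 565 CPM for db/m and 467 ± 171 CPM for db/db. Of the epithelial list, miR-200c-3p (148 and 108 CPM, db/m first) and miR-194-5p (232 and 219 CPM) were lower in db/db. In the same list miR-192-5p was higher (110 and 197 CPM). The part of other cell types in the miR-30a-5p difference was not tested beyond these levels. Erythroid, myeloid and lymphoid lists had 0 of 1, 0 of 3 and 0 of 3 tested members called by edgeR or DESeq2 (0, 0 and 1 at an unadjusted edgeR p under 0.05), with median log2 fold changes of -0.007, -0.06 and -0.30. For comparison, edgeR called 4.86% of all 144 tested miRNAs, and 22.2% had an unadjusted edgeR p under 0.05. The erythroid value is that of miR-486a-5p alone, which varied among db/db libraries. It stood at 5754 CPM in db/db replicate 3 and at 1108 to 2495 CPM in the rest of db/db. That library also had the highest lymphoid sum (23288 CPM).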

How the data were processed

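For each mature miRNA and library the authors deposited raw counts, log2 CPM values, and a log2 fold change, a signed fold change (read as a score), a p-value and a false discovery rate of diabetic against control samples, per the file headers. Libraries were made from Trizol RNA of sorted cells with a QIAseq miRNA kit, per the labels' protocols. edgeR 3.41.9 and mm10 are named in the submitters' processing notes; no source used here gives the aligner or says whether molecular identifiers were collapsed, so counts may be of reads or of molecules. Columns were joined to samples by the number and suffix in their names, and 0 value columns were left without a sample. The authors' fold changes were matched for all 190 miRNAs by edgeR's likelihood ratio test (tolerance 1e-06).

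The test was that of edgeR 4.0.16 (R 4.3.3): filterByExpr (minimum count 10, minimum total 15), TMM, robust glmQLFit and glmQLFTest with 6 residual degrees of freedom, and Benjamini-Hochberg adjustment over all 144 miRNAs at 0.05. The SE is the log2 fold change over the square root of F. Ratios within a library were compared by exact permutation over 70 assignments (SciPy 1.17.1). Alternatives were RLE factors, library totals, no filter, DESeq2 1.42.0, leaving out each library, summing libraries of 1 title number, and other pseudocounts. The text names every miR-30 row, called and most abundant members of the lists, and for likeness the 5 highest correlations. The members and lists were chosen with earlier results of these data known.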

Additional observations from a re-analysis of the deposited data

Results flagged for a closer look

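Within groups of 4 libraries, a value was singled out when its gap to the nearest library, divided by the whole range, was above Dixon's critical value for 4 samples, which chance passes in about 1 of 20 groups. Of 26 groups checked (6 members, 4 sums and 3 ratios in each genotype), 3 held such a value. miR-30a-5p was high in db/db replicate 2, at 1224 CPM (gap over range 0.841). miR-30e-5p was high in the same library, at 3653 CPM (0.854), and in db/m replicate 3, at 3066 CPM (0.870). Over all 144 tested miRNAs db/db replicate 2 stood apart for 4 and db/m replicate 3 for 2.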

How the results depend on the processing

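No paired analysis was possible because the title numbers do not occur in both genotypes and the replicate numbers used here only name libraries. In db/m, replicates 1 to 3 share 1 title number and replicate 4 has another. In db/db, replicates 1 and 2 share 1 title number and replicates 3 and 4 share another. The number of tested miRNAs past an adjusted p of 0.05 was 4 higher and 3 lower in db/db. It changed to 2 higher without a filter, to 8 lower with DESeq2 and to 9 lower with libraries of 1 title number summed, and leaving out single libraries gave 2 to 7 higher and 1 to 11 lower. Scaling by library totals moved the median log2 fold change of all tested miRNAs by 0.11 and put all 6 miR-30 members above 0; without a filter 3 of 6 were above 0. miR-30a-5p kept its direction in 13 of 13 alternatives and passed in 8. Signs turned for miR-30c-5p (-0.055 without a filter; -0.12 to 0.20 with single libraries left out), miR-30d-5p (-0.012 without a filter, -0.062 with title numbers summed; -0.036 to 0.17) and miR-30e-3p (0.011 under library totals, 0.065 with title numbers summed; -0.39 to 0.14). The cause was not tested. The 4 sums moved by less than the spread between libraries in all alternatives run, and no ratio passed under any, which 3 against 4 libraries cannot do; with single libraries left out, the log2 differences were 0.95 to 1.38 for miR-30a-5p to miR-30d-5p, 0.19 to 0.62 for miR-30a-5p to miR-30e-5p and -1.61 to -0.58 for the miR-30e strands. Counts per library were low for miR-30a-5p (3 to 63), miR-30b-5p (7 to 34) and miR-30e-3p (9 to 20), which limits the precision of their values.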
